A study of Mus musculus with 21 samples.

Results

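The 10 genes described here encode checkpoint ligands, arginine-consuming enzymes and suppressive cytokines: Cd274, Pdcd1lg2, Cd80, Cd86, Cd47, Arg1, Arg2, Nos2, Tgfb1 and Il10. They were taken by symbol, and all 10 were present among the 14273 genes of the deposited expression table. RNA had been sequenced from spleen cells of C57BL/6 mice in 21 libraries, 3 in each of 7 groups. In 6 groups Ter119+CD71+ cells had been sorted as CD45+ or as CD45-, each from mice bearing tumors, mice with anemia and neonatal mice, and the seventh held myeloid-derived suppressor cells (MDSC), sorted by CD11b and Gr1 from mice bearing tumors. The 6 groups are called tumor, anemia and neonatal CD45+ or CD45- cells. The tumor, the way anemia was brought about, the ages and any pooling of animals are not given in the sources used here. Whether a group's 3 libraries stem from different animals is not stated either, so p-values reflect only the spread between libraries, which may be technical.

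Checkpoint ligands are surface proteins that T cells or phagocytes read through a receptor. PD-L1 (Cd274) and PD-L2 (Pdcd1lg2) bind PD-1 and restrain T cells. CD80 and CD86 give costimulation through CD28 and bind the inhibitory receptor CTLA-4 more tightly, and CD47 signals to SIRP-alpha on phagocytes and holds back engulfment, which is well known for red cells. Arginases (Arg1, Arg2) and inducible nitric oxide synthase (Nos2) consume arginine, an amino acid that T cells need, and are classical products of MDSC. TGF-beta 1 (Tgfb1) and interleukin 10 (Il10) are secreted cytokines that dampen immune responses, and TGF-beta is also known from immature erythroid cells that carry CD45 and suppress T cells.

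Values are the deposited log2 expression values taken out of the log, on a scale that the sources do not name, so levels were compared between groups for a gene and never between genes. Per library they added up to 227961 to 349261, over 12294 to 13952 genes with a value, and the read depth is unknown. Ptprc, which encodes CD45, was at 86.7 to 477 in the 9 libraries of CD45+ cells and at 1.23 to 5.50 in the 9 of CD45- cells. Tfrc, which encodes CD71, was at 40.6 to 161 in CD45+ cells and at 326 to 1495 in CD45- cells. Haemoglobin genes made up 1.29% to 14.9% of the summed values in CD45+ cells, 11.2% to 46.2% in CD45- cells and 0.0264% to 0.486% in MDSC. Library 3 of every group stood apart from its 2 companions, by Pearson's r of log2(value + 1) across 6545 genes. In the CD45+ groups r was 0.776 to 0.852 between it and its companions, and 0.922 to 0.942 between those companions. In the CD45- groups these values were 0.888 to 0.939 and 0.956 to 0.967. In MDSC they were 0.919 and 0.923 with library 3, and 0.938 between its companions. Where leaving library 3 out changed a member's call, the values without it are given.

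CD45+ cells also held transcripts of other blood cells. Summed over 7 B cell genes, levels were 126 to 529 in tumor, 739 to 902 in anemia and 97.4 to 330 in neonatal CD45+ cells, 1.44 to 11.0 over all CD45- libraries and 7.69 to 11.8 in MDSC. The sum of 8 T cell genes was 23.4 to 126, 173 to 307 and 16.6 to 46.2 in tumor, anemia and neonatal CD45+ cells, 3.04 to 7.82 in CD45- cells and 4.49 to 5.37 in MDSC. For 10 neutrophil granule and calgranulin genes it was 11232 to 29436, 487 to 2752 and 9422 to 11851 in the same 3 CD45+ groups, 9.07 to 372 in CD45- cells and 44698 to 69587 in MDSC. For 11 monocyte and macrophage genes it was 222 to 1181, 170 to 233 and 1279 to 2247, then 18.8 to 160 in CD45- cells and 161 to 248 in MDSC. None of these 36 genes was at 0 in all 3 libraries of a group. Their part in the results on the 10 genes was not tested, and sums set beside a member below are descriptions.

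Cd274 and Pdcd1lg2 lie next to each other on mouse chromosome 19, with RefSeq starts 43481 bases apart and no protein-coding gene between them. Over the 21 libraries their log2(value + 1) had a Pearson's r of 0.886, given as a description because the libraries share their groups. The 250 bases before each start are shown because these neighbours encode both ligands of PD-1 and are set side by side below. The sequences are RefSeq, build GRCm38.p6, plus strand, at chr19:29367188-29367437 for Cd274 and chr19:29410669-29410918 for Pdcd1lg2, and capitals mark motif matches.
Cd274: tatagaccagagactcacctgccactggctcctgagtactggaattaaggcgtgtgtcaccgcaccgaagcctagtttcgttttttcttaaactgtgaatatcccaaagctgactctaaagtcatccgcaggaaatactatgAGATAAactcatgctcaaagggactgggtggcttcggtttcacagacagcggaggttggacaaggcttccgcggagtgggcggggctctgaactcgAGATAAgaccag
Pdcd1lg2: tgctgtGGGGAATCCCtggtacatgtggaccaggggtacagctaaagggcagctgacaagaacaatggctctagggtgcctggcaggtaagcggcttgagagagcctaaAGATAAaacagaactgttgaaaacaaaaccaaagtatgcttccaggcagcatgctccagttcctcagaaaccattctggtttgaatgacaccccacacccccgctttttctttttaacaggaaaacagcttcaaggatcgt
The capitals in both are the GATA motif AGATAA, searched on both strands. It lies at bases 108 to 103 and 12 to 7 before the start of Cd274 and at bases 141 to 136 before that of Pdcd1lg2, and 9.99% of 32851 RefSeq windows of the same length hold it. The remaining capitals, at bases 244 to 235 before Pdcd1lg2, are a match to the kappaB site on both strands, a motif that 7.25% of windows hold. The GAS element TTCNNNGAA, held by 7.02% of windows, and the IRF element (GAAA, any 2 bases, GAAA), held by 2.98%, had no match in either window. Promoter windows were at hand for 5 of the 10 genes: these neighbours, Cd47, Cd80 and Tgfb1.

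PD-L1 transcript was higher in CD45+ than in CD45- cells of every state. Cd274 was at 5.08, 7.34 and 24.6 in tumor CD45+ cells, at 19.6, 21.3 and 73.2 in anemia CD45+ cells and at 8.26, 8.62 and 15.1 in neonatal CD45+ cells. It was at 0.637, 0.461 and 1.13 in tumor CD45- cells, at 0.918, 2.08 and 0.820 in anemia CD45- cells, at 1.32, 1.79 and 1.14 in neonatal CD45- cells and at 2.02, 1.44 and 2.49 in MDSC. No CD45+ library overlapped with any CD45- or MDSC library, and the third library was the highest of each CD45+ group. The log2 fold change of value + 1 between CD45+ and CD45- cells was 2.66 ± 0.50 (SE) in tumor-bearing mice, with a limma adjusted p of 2e-04. In mice with anemia it was 3.88 ± 0.50 (adjusted p = 4.3e-06), and in neonates 2.23 ± 0.50 (adjusted p = 0.00099). The neonatal call was lost under quantile normalization (1.24, adjusted p = 0.073). The pseudocount of 1 makes such fold changes smaller than the true ones for genes at low levels. In bulk samples, fewer cells of a type and less RNA per cell cannot be told apart. Cd274 overlaps Plgrkt, a protein-coding gene, and a long non-coding RNA in the RefSeq annotation. Whether counting used strand is not given in the sources used here, so shared reads cannot be told apart. Plgrkt itself was at 15.6 to 45.2 in CD45+ cells, 6.16 to 25.1 in CD45- cells and 16.4 to 17.2 in MDSC, a span that overlaps between all 3 kinds of cell.

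Among the CD45+ groups, anemia cells had the highest mean Cd274 level, 38.0 ± 30.5 (SD, n = 3), then tumor cells with 12.3 ± 10.7 and neonatal cells with 10.6 ± 3.83. Neighbouring groups in this order overlapped. Tumor against anemia CD45+ cells gave a log2 fold change of -1.57 ± 0.50, which missed the threshold (adjusted p = 0.051). It passed without the third tumor CD45+ library (-2.19, adjusted p = 0.0023), without anemia CD45+ library 1 (-1.90, adjusted p = 0.046) and without library 3 of every group (-1.59, adjusted p = 0.001), and under quantile normalization (-1.89, adjusted p = 0.033). Anemia against neonatal CD45+ cells gave 1.53 ± 0.50 (adjusted p = 0.038), with no overlap. That call was lost without the third anemia CD45+ library (0.93, adjusted p = 0.18) and held without library 3 of every group (1.18, adjusted p = 0.005). It was also lost without neonatal CD45+ library 1 (1.38, adjusted p = 0.13) or 2 (1.41, adjusted p = 0.12), and with a pseudocount of 0.1 (1.60, adjusted p = 0.07). Tumor and neonatal CD45+ cells gave -0.05 ± 0.50, a 95% interval of -1.09 to 1.0. The B cell sum ran with Cd274 in part: 529 in the third tumor CD45+ library, against 126 and 162 in the other tumor CD45+ libraries, and highest in the anemia group. Between the anemia CD45+ libraries it did not. The third, with the highest Cd274 level, had a B cell sum of 783, between 739 and 902 in its companions. The part of B cells in the Cd274 levels was not tested. The 3 genes whose level was most like that of Cd274 over the 21 libraries were Zbtb10 (r = 0.984), Cd83, a surface marker of activated B cells and dendritic cells (r = 0.982), and Ralgps2 (r = 0.973).

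PD-L2 transcript was low everywhere and highest in anemia CD45+ cells. Pdcd1lg2 was at 0.618, 0.760 and 2.33 in tumor CD45+ cells, at 2.40, 2.66 and 3.10 in anemia CD45+ cells and at 0.195, 0.0400 and 0.674 in neonatal CD45+ cells. Across the 9 CD45- libraries it was between 0 and 0.0770, and in MDSC it was at 0.421, 0.367 and 0.136. Anemia CD45+ cells lay above tumor CD45+ cells and these above MDSC without overlap, while neonatal CD45+ cells overlapped with MDSC and in part with tumor CD45+ cells. CD45+ cells had more than CD45- cells in tumor-bearing mice (1.06 ± 0.23, adjusted p = 0.00081) and in mice with anemia (1.83 ± 0.23, adjusted p = 3.7e-06). In neonates the difference of 0.34 ± 0.23 missed the threshold (adjusted p = 0.21) though the libraries did not overlap, and passed with a pseudocount of 0.1 (1.58, adjusted p = 0.018). The CD45 difference itself was larger in anemia than in neonates, by 1.48 ± 0.33 (interaction term, adjusted p = 0.010). Pdcd1lg2 reached a value of 1 in the 3 anemia CD45+ libraries and in 1 tumor CD45+ library, so it entered the fit through the group where it was high, and a difference from that group was built into its choice. The tumor minus anemia term was -0.77 (adjusted p = 0.26), and -1.10 without tumor CD45+ library 3 (adjusted p = 0.0059).

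Tumor CD45+ cells had less Pdcd1lg2 than anemia CD45+ cells (-0.81 ± 0.23, adjusted p = 0.030). This call was lost when tumor CD45+ library 1 or 2, or any of the 3 anemia CD45+ libraries, was left out, with fold changes of -0.62 to -0.87 and adjusted p of 0.061 to 0.19, and with a pseudocount of 0.1 (-1.29, adjusted p = 0.19). Without library 3 of every group the gene was too low to be tested. Anemia CD45+ cells exceeded neonatal ones (1.54 ± 0.23, adjusted p = 0.00012). Tumor against neonatal CD45+ cells gave 0.73 ± 0.23 (adjusted p = 0.073), and 0.043 when the replicate number was a block. It passed without tumor CD45+ library 1 (0.92, adjusted p = 0.034), without neonatal CD45+ library 3 (0.92, adjusted p = 0.031) and with no filter (adjusted p = 0.045). Its most similar genes were Traf1, a signalling adaptor of the TNF receptor family (r = 0.984), Ell3 (r = 0.983) and Fcer2a, the IgE receptor CD23 of B cells (r = 0.982).

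The CD28 and CTLA-4 ligands had their highest group means in neonatal CD45+ cells, whose libraries overlapped with those of anemia CD45+ cells. Cd86 was at 15.5, 14.5 and 49.8 in tumor CD45+ cells, at 36.0, 23.5 and 65.5 in anemia CD45+ cells and at 63.7, 48.6 and 64.3 in neonatal CD45+ cells. It was at 0.328, 0.251 and 0.936 in tumor CD45- cells, at 0.885, 1.06 and 0.488 in anemia CD45- cells and at 2.18, 1.65 and 1.22 in neonatal CD45- cells. MDSC lay between, at 8.74, 10.1 and 7.61, with no overlap with any other group. On the log2(value + 1) scale the CD45+ to CD45- fold change of Cd86 was the largest of the tested members in each state. That scale shrinks the fold changes of members at low levels, so the order need not hold for ratios of the levels themselves. For Cd86 it gave 4.0 ± 0.41 in tumor-bearing mice (adjusted p = 2.9e-07), 4.45 ± 0.41 in anemia (adjusted p = 9.2e-08) and 4.48 ± 0.41 in neonates (adjusted p = 1.1e-07). These sizes did not differ beyond their errors: the interaction terms were -0.45 ± 0.58 for tumor minus anemia and -0.49 ± 0.58 for tumor minus neonatal, with adjusted p of 0.80 and 0.99. Their 95% intervals, -1.67 to 0.76 and -1.71 to 0.73, leave room for differences of either sign.

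Cd80 was at 1.68, 2.24 and 5.10 in tumor CD45+ cells, at 3.25, 2.70 and 9.32 in anemia CD45+ cells, at 8.18, 5.56 and 7.26 in neonatal CD45+ cells and at 2.76, 4.08 and 5.25 in MDSC. The 9 CD45- libraries had 0 to 0.276. All CD45+ libraries thus lay above all CD45- libraries, and MDSC overlapped with tumor CD45+ cells. The fold change against CD45- cells was 1.76 ± 0.34 in tumor-bearing mice (adjusted p = 0.00026), 2.28 ± 0.34 in anemia (adjusted p = 2.1e-05) and 2.72 ± 0.34 in neonates (adjusted p = 3.3e-06).

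In tumor against neonatal CD45+ cells the calls of both ligands changed with the third tumor library and with the replicate block. With all libraries the fold change was -1.34 ± 0.41 for Cd86 (adjusted p = 0.061) and -1.08 ± 0.34 for Cd80 (adjusted p = 0.069). With the replicate number as a block the same differences had adjusted p of 0.039 and 0.035. Without tumor CD45+ library 3 they were -1.89 (adjusted p = 0.0017) and -1.43 (adjusted p = 0.0083). Against anemia CD45+ cells Cd86 gave -0.74 ± 0.41 (adjusted p = 0.31), and -1.29 without tumor library 3 (adjusted p = 0.015) or -0.91 without library 3 of every group (adjusted p = 0.013). Cd80 gave -0.54 ± 0.34 (adjusted p = 0.38). Anemia against neonatal CD45+ cells gave -0.60 ± 0.41 for Cd86 (adjusted p = 0.34) and -0.54 ± 0.34 for Cd80 (adjusted p = 0.29). Cd80 passed there without anemia CD45+ library 3 (-1.0, adjusted p = 0.021), and both passed without library 3 of every group (Cd86 -0.91, adjusted p = 0.012, and Cd80 -0.97, adjusted p = 0.0036). The 3 tumor CD45+ libraries had monocyte and macrophage sums of 258, 222 and 1181, against 1279 to 2247 in neonatal CD45+ cells, so the library with the most Cd80 and Cd86 of its group also had the most of these markers. Their part in the result was not tested. The genes most like Cd86 were Pld4 (r = 0.990), Irf5, a transcription factor of inflammatory responses (r = 0.986), and Cd1d1, a lipid-presenting molecule (r = 0.982). Those most like Cd80 were Ms4a6c (r = 0.972), Trpm2, a calcium channel (r = 0.970), and Ssfa2 (r = 0.968).

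**Figure D1:**
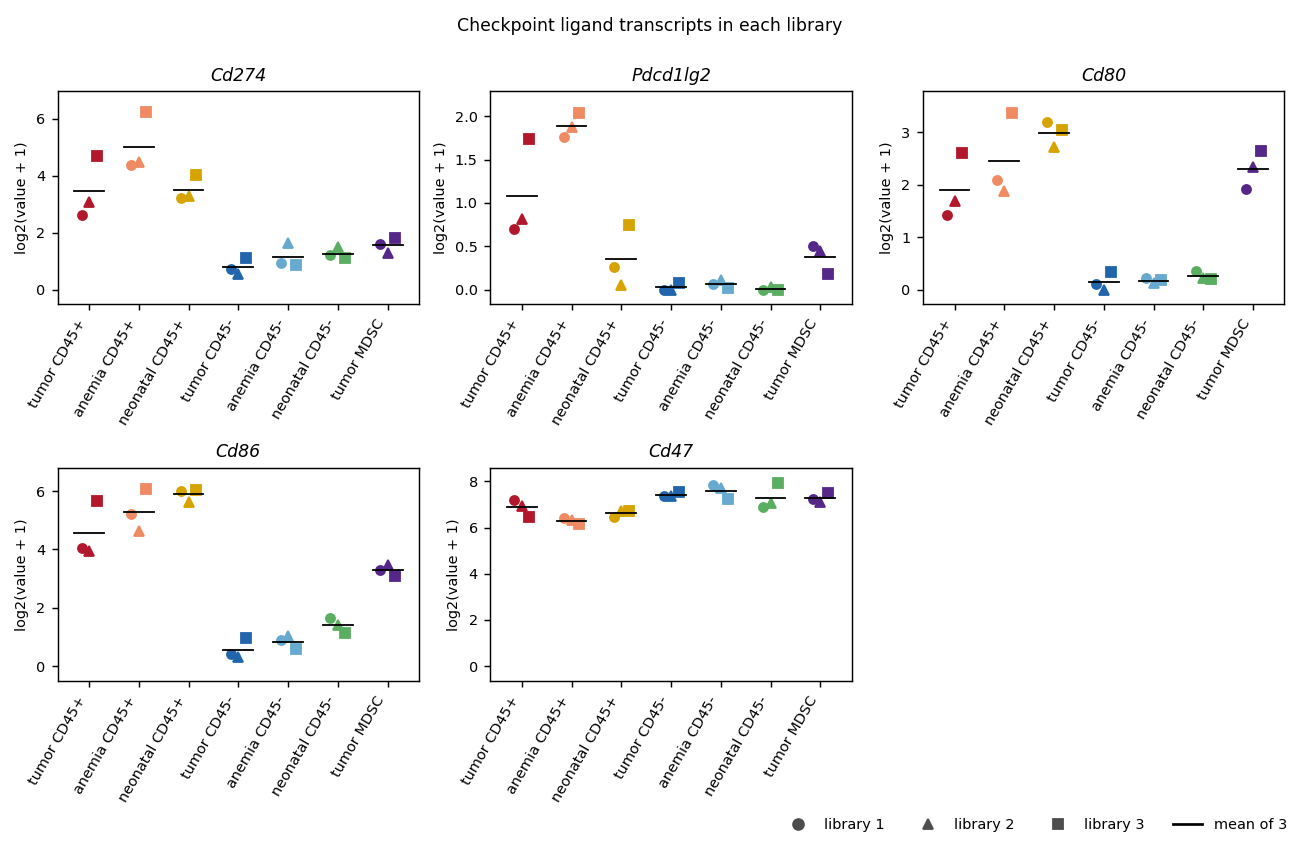
Checkpoint ligand transcripts as log2(value + 1) in each library, by group, with circles, triangles and squares for libraries 1, 2 and 3 and a bar for the mean of 3. Cd274, Pdcd1lg2, Cd80 and Cd86 lie near the bottom in the CD45- groups, library 3 of the tumor and anemia CD45+ groups is the highest of its group for these 4 genes, and Cd47 is high in every group.

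Cd47 ran the other way. It was at 145, 121 and 88.0 in tumor CD45+ cells, at 83.5, 78.8 and 69.6 in anemia CD45+ cells and at 86.0, 103 and 103 in neonatal CD45+ cells. It was at 162, 165 and 187 in tumor CD45- cells, at 228, 207 and 149 in anemia CD45- cells, at 116, 133 and 241 in neonatal CD45- cells and at 148, 136 and 178 in MDSC. In each state the CD45+ libraries lay below the CD45- libraries without overlap. The fold change passed in anemia (-1.31 ± 0.28, adjusted p = 0.00084). It missed the threshold in tumor-bearing mice (-0.56 ± 0.28, adjusted p = 0.099) and in neonates (-0.67 ± 0.28, adjusted p = 0.051). The neonatal value passed without neonatal CD45- library 1 (-0.88, adjusted p = 0.025) and, at a smaller size, without library 3 of every group (-0.40, adjusted p = 0.04). The anemia and tumor differences were not told apart by the interaction term, 0.75 ± 0.40 (adjusted p = 0.41), with all libraries. Without library 3 of every group the term was 1.12 ± 0.21 (adjusted p = 0.0062). Scaling by median ratios, which lowers the CD45+ libraries relative to CD45- ones, turned the tumor and neonatal values into -1.54 (adjusted p = 0.00091) and -1.62 (adjusted p = 0.0007). Among CD45+ groups, tumor cells lay above anemia cells without overlap (0.58 ± 0.28, adjusted p = 0.24; 0.70 without library 3 of every group, adjusted p = 0.0057). Tumor CD45+ cells against MDSC gave -0.40 ± 0.24 (adjusted p = 0.36). The genes most like Cd47 were Acsl1, which activates fatty acids (r = 0.940), and Nuf2 and Ckap5, which act at the mitotic spindle (r = 0.939 and 0.936).

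Nos2 was found in tumor-bearing mice, in MDSC and at a lower level in CD45+ cells. It was at 1.64, 5.32 and 0.758 in tumor CD45+ cells, at 0.0339, 0.0185 and 0.186 in anemia CD45+ cells and at 0 to 0.0479 in neonatal CD45+ cells. In the 9 CD45- libraries it was at 0 to 0.0368, and in MDSC at 7.50, 10.7 and 8.18. The 3 MDSC libraries lay above the tumor CD45+ libraries, and these above every other library. Tumor CD45+ cells had less than MDSC by a log2 fold change of -1.65 ± 0.40 (adjusted p = 0.035). That call was lost when any library of either group except tumor CD45+ library 2 was left out, with fold changes of -1.25 to -1.75 and adjusted p of 0.071 to 0.13. It was also lost without library 3 of every group (-1.29, adjusted p = 0.18), with a pseudocount of 0.1 (-2.13, adjusted p = 0.06) and with no filter (adjusted p = 0.054). Nos2 was not tested in the fit without MDSC, because 2 of its 18 libraries reached a value of 1. With no filter on low values, tumor CD45+ cells had more than tumor CD45- cells (1.60 ± 0.28, adjusted p = 0.00016), than anemia CD45+ cells (1.52 ± 0.28, adjusted p = 0.0022) and than neonatal CD45+ cells (1.60 ± 0.28, adjusted p = 0.0014).

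The neutrophil sum separated the groups in a similar but not the same way. Tumor CD45+ cells had sums of 28131, 29436 and 11232, with the lowest sum in library 3, where Nos2 was lowest too. It was 44698 to 69587 in MDSC. In neonatal CD45+ cells it was 9422 to 11851, close to that of tumor CD45+ library 3, while Nos2 there was at most 0.0479 against 0.758. The part of neutrophils in the Nos2 levels was not tested. Genes most like Nos2 were Lipg, an endothelial-type lipase (r = 0.977), Dhrs9 (r = 0.971) and Scrg1 (r = 0.958).

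Arginase 2 was shared by CD45+ cells and MDSC. Arg2 was at 4.09, 7.57 and 3.67 in tumor CD45+ cells, at 0.826, 0.815 and 16.3 in anemia CD45+ cells and at 2.67, 1.5 and 8.72 in neonatal CD45+ cells. It was at 0 to 0.171 in the 9 CD45- libraries and at 7.88, 13.9 and 10.6 in MDSC. All CD45+ libraries lay above all CD45- libraries, and a single library set the mean of the anemia group. The fold change against CD45- cells was 2.53 ± 0.63 in tumor-bearing mice (adjusted p = 0.0023), 1.91 ± 0.63 in anemia (adjusted p = 0.015) and 1.97 ± 0.63 in neonates (adjusted p = 0.012). Without the third CD45+ library of the state, the anemia value was 0.83 (adjusted p = 0.092) and the neonatal value 1.41 (adjusted p = 0.079). Without library 3 of every group both passed, at 0.82 (adjusted p = 0.013) and 1.41 (adjusted p = 0.00059). Quantile normalization ended both calls (1.46, adjusted p = 0.065, and 1.31, adjusted p = 0.096).

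Tumor against anemia CD45+ cells gave 0.61 ± 0.63 for Arg2 (adjusted p = 0.64). Without anemia library 3 the same difference was 1.69 (adjusted p = 0.010), and without library 3 of every group 1.86 (adjusted p = 0.00032). Anemia against neonatal CD45+ cells gave -0.21 (adjusted p = 0.86), and -1.30 without anemia library 3 (adjusted p = 0.029). In anemia CD45+ library 3 the CD11b gene Itgam, by which MDSC were sorted, stood at 48.0, against 12.0 and 10.4 in its companions, and the neutrophil sum was 2752, against 848 and 487. Haemoglobin genes made up 1.29% of its summed values, against 14.9% and 9.94%. Their part in the Arg2 level was not tested. Tumor CD45+ cells lay below MDSC without overlap, but the difference of -0.97 ± 0.30 missed the threshold (adjusted p = 0.081). It passed under median-ratio scaling (-1.21, adjusted p = 0.042) and without tumor CD45+ library 2 (-1.24, adjusted p = 0.049). Arg2 overlaps Vti1b in the annotation, and Vti1b was at 14.3 to 23.0 in CD45+ cells, 2.59 to 9.55 in CD45- cells and 17.3 to 21.8 in MDSC. Like Arg2, Vti1b was thus higher in CD45+ cells and MDSC than in CD45- cells, without overlap. Reads shared with Vti1b cannot be told apart, and their part in the Arg2 levels was not tested. The genes most like Arg2 were Clec4d and Clec4e, C-type lectins of myeloid cells (r = 0.975 and 0.964), and Mefv, which encodes pyrin (r = 0.962).

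Arginase 1 was found in neonates. In the 15 libraries of the tumor and anemia groups, MDSC included, Arg1 was at 0 to 0.141. It was at 14.0, 4.73 and 3.56 in neonatal CD45+ cells and at 1.60, 0.563 and 8.33 in neonatal CD45- cells. All 6 neonatal libraries lay above all others, while the CD45+ and CD45- libraries of neonates overlapped. Tumor CD45+ cells had less than neonatal CD45+ cells (-2.74 ± 0.47, adjusted p = 0.0013), as did anemia CD45+ cells (-2.73 ± 0.47, adjusted p = 0.00047). Arg1 reached a value of 1 in neonatal libraries and in no other of the fit, so it was tested because it was high there, and a difference was built into its choice. Neonatal CD45+ against neonatal CD45- cells gave 1.12 ± 0.47 (adjusted p = 0.049; 0.051 with the replicate number as a block), a call that single libraries moved in both directions. It was 0.61 without neonatal CD45+ library 1 (adjusted p = 0.28), and 0.94 and 0.57 without neonatal CD45- library 1 or 2 (adjusted p = 0.15 and 0.29). Without neonatal CD45- library 3, the one with 8.33, it was 1.86 (adjusted p = 0.00041), and without library 3 of every group 2.20 (adjusted p = 0.00068). Median-ratio scaling made it 0.42 (adjusted p = 0.49), and quantile normalization 0.07 (adjusted p = 0.92). It also missed the threshold with a pseudocount of 0.1 and with no filter (adjusted p = 0.064 and 0.058).

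In mice arginase 1 is also an enzyme of the urea cycle in liver. The sum of 16 hepatocyte genes, a list added after the values were seen, was 1.01 to 180 in those 15 libraries, 264 to 546 in neonatal CD45+ cells and 156 to 908 in neonatal CD45- cells. It was highest in neonatal CD45- library 3, which had the highest Arg1 level of its group. In neonatal CD45+ cells library 3 had the highest sum, 546, and the lowest Arg1 level. Tumor CD45+ library 3 had a sum of 180, above the 156 of neonatal CD45- library 2, and an Arg1 level of 0.103 against 0.563. Of the 16 genes, none was at 0 in all 3 libraries of either neonatal group. In tumor CD45- cells 1 was (Afp), in tumor CD45+ cells 7 and in MDSC 9. In anemia CD45- cells 11 were and in anemia CD45+ cells 14, albumin (Alb) among them. Their part in the Arg1 levels was not tested. The genes most like Arg1 were Vsig4 and Stab1, surface receptors of tissue macrophages (r = 0.913 and 0.912), and Cdh5, the cadherin of endothelium (r = 0.885).

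Tgfb1 was present in all groups, and its CD45 difference in tumor-bearing mice depended on scaling. It was at 36.0, 28.9 and 33.2 in tumor CD45+ cells, at 27.7, 31.0 and 41.7 in anemia CD45+ cells and at 46.9, 45.3 and 40.6 in neonatal CD45+ cells. It was at 16.7, 17.4 and 15.5 in tumor CD45- cells, at 11.4, 5.16 and 8.85 in anemia CD45- cells, at 16.3, 18.3 and 17.7 in neonatal CD45- cells and at 30.4, 33.5 and 19.0 in MDSC. All CD45+ and MDSC libraries lay above all CD45- libraries. The fold change was 0.94 ± 0.24 in tumor-bearing mice (adjusted p = 0.0031), 1.90 ± 0.24 in anemia (adjusted p = 4.1e-06) and 1.30 ± 0.24 in neonates (adjusted p = 0.00022). The median fold change of all 11195 tested genes was 0.75, 0.68 and 0.75 in these comparisons, so relative to the median gene Tgfb1 stood 0.19, 1.22 and 0.55 higher. Median-ratio scaling gave -0.01 in tumor-bearing mice (adjusted p = 0.98), 1.05 in anemia (adjusted p = 0.0058) and 0.38 in neonates (adjusted p = 0.29), and quantile normalization 0.56 in tumor-bearing mice (adjusted p = 0.058). None of the 3 CD45+ groups differed from another at the threshold, with differences of -0.43 to -0.02. Tumor CD45+ cells against MDSC gave 0.27 ± 0.24, with a 95% interval of -0.26 to 0.80 (adjusted p = 0.56). Most like Tgfb1 were Vps11 (r = 0.915), Crtc2 (r = 0.914) and Inf2 (r = 0.908).

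Il10 was graded over the CD45+ groups, with the neonatal cells highest. It was at 0.793, 1.31 and 1.20 in tumor CD45+ cells, at 1.82, 1.87 and 6.69 in anemia CD45+ cells and at 7.80, 9.58 and 9.34 in neonatal CD45+ cells. It was listed at 0 in all tumor and anemia CD45- libraries, at 0.586, 0.234 and 0 in neonatal CD45- cells and at 0.156, 0.0870 and 0.432 in MDSC. The 3 CD45+ groups did not overlap, and none of their libraries overlapped with CD45- cells or MDSC. Tumor CD45+ cells had less than neonatal CD45+ cells (-2.24 ± 0.30, adjusted p = 0.00011), and so did anemia CD45+ cells (-1.32 ± 0.30, adjusted p = 0.0044; -1.60 and 0.069 with a pseudocount of 0.1). Tumor against anemia CD45+ cells gave -0.93 ± 0.30 (adjusted p = 0.057). That difference passed without anemia CD45+ library 1 (-1.17, adjusted p = 0.037) or 2 (-1.16, adjusted p = 0.041), and was -0.49 without library 3 of every group (adjusted p = 0.073). Against CD45- cells the adjusted p was 0.0056 in tumor-bearing mice and 2.5e-05 in anemia (0.089 in tumor-bearing mice under quantile normalization), where no fold is given because the CD45- cells were listed at 0. In neonates the fold change was 2.98 ± 0.30 (adjusted p = 3.2e-07). Mast cell, basophil and eosinophil genes, summed over 6 genes, were at 30.0 to 115 in tumor, 8.80 to 26.1 in anemia and 701 to 1343 in neonatal CD45+ cells. They were thus highest where Il10 was highest but in the opposite order between tumor and anemia cells. Their part in the result was not tested. Most like Il10 were Cxcl16 (r = 0.947), Rasa4 (r = 0.941) and Lacc1 (r = 0.932).

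**Figure D2:**
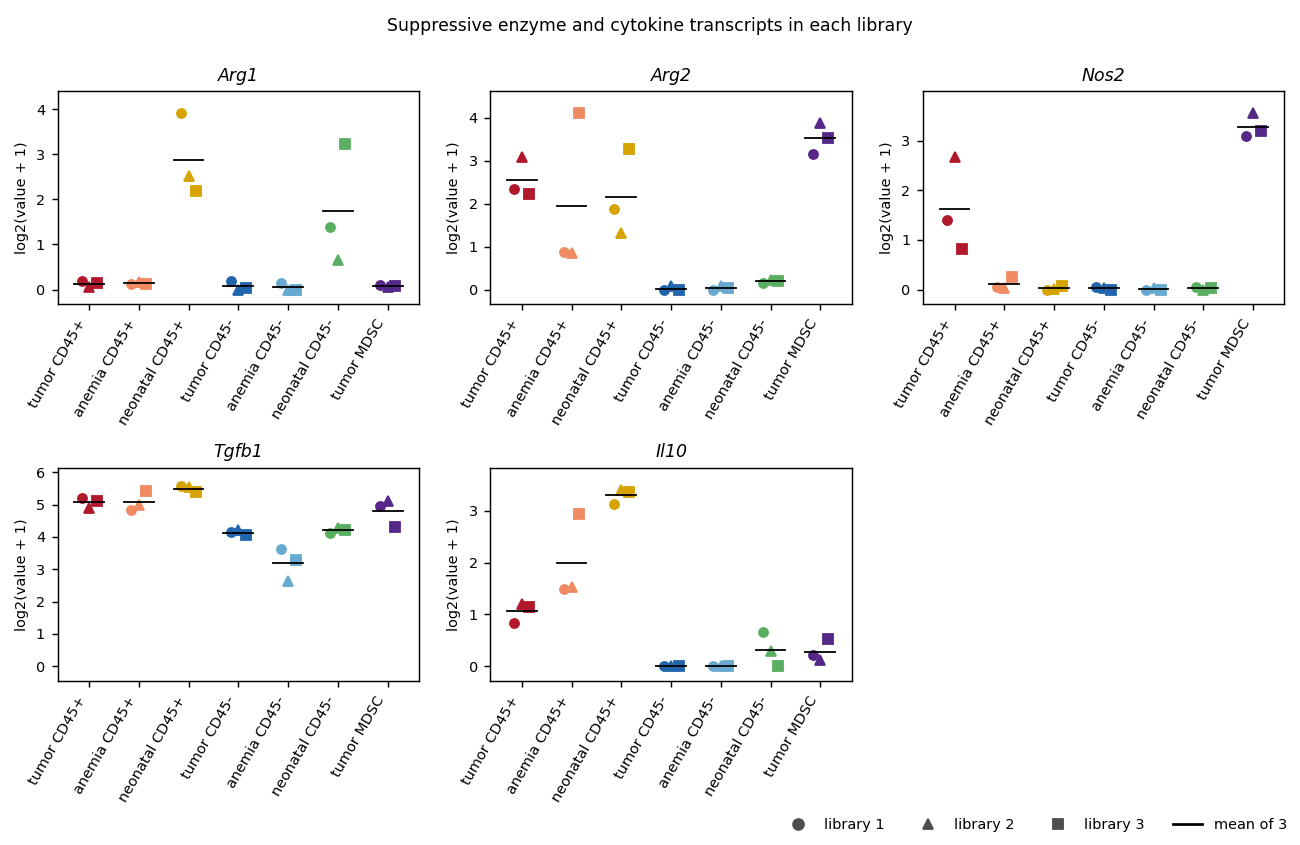
Enzyme and cytokine transcripts as log2(value + 1) in each library, by group, with a bar for the mean of 3 libraries. Nos2 stands out in MDSC and tumor CD45+ cells, Arg1 in both neonatal groups, Il10 in neonatal CD45+ cells, and Arg2 of anemia CD45+ cells rests on library 3.

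Of the 10 members 9 were tested, and 7 of the 9 tested members passed as higher and 0 as lower in tumor CD45+ against tumor CD45- cells. Of all 11195 tested genes 61.1% passed in that comparison, 50.2% as higher and 10.9% as lower. In anemia 7 members passed as higher and 1, Cd47, as lower, where 58.7% of all genes passed, 47.4% as higher and 11.3% as lower. In neonates 7 passed as higher and 0 as lower, where 59.9% of all genes passed, 49.6% as higher and 10.3% as lower. Pdcd1lg2, Cd80, Arg2 and Il10 were under 1 in every CD45- library and entered the fit through their CD45+ libraries, so a difference was built into their choice. Of the other 5 tested members, 3 passed as higher in tumor-bearing mice and in anemia, and 4 in neonates. Over the members that were not listed at 0 in a group, the median log2 fold change was 1.41 (8 genes), 1.90 (8 genes) and 1.97 (9 genes), beside the medians of all genes given above.

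Those medians depend on scaling. With median-ratio scaling the all-gene medians were 0.08, 0.06 and 0.08. The genes that passed as higher and lower were then 3646 and 2860 in tumor-bearing mice, 3372 and 2837 in anemia and 3401 and 2710 in neonates. Without scaling they were 5621 and 1218, 5310 and 1267, and 5554 and 1156, and with quantile normalization 2811 and 2968, 2784 and 2905, and 2848 and 2728. Members that passed as higher and lower were 6 and 1, 7 and 1, and 5 and 1 under median-ratio scaling, and 5 and 0, 6 and 1, and 4 and 0 under quantile normalization. Relative to the median gene without scaling, Cd86 stood 3.25, 3.77 and 3.74 higher in tumor-bearing mice, anemia and neonates, Cd274 1.91, 3.20 and 1.48 higher, and Cd47 stood at -1.31, -1.99 and -1.42.

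**Figure D3:**
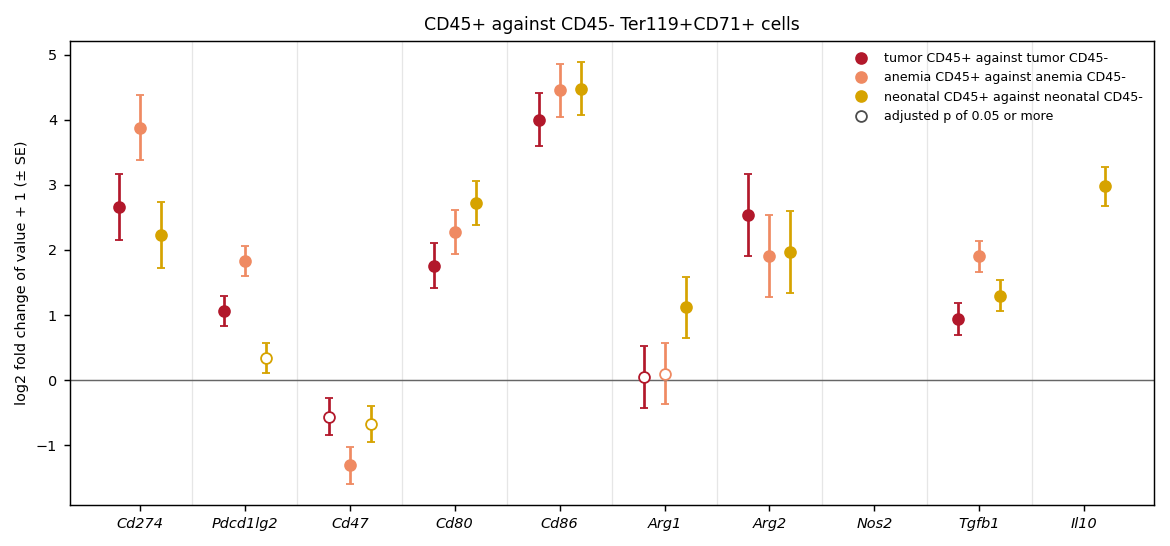
Log2 fold change of value + 1 (± SE) between CD45+ and CD45- cells for each tested member in tumor-bearing mice, mice with anemia and neonates, with open symbols for an adjusted p of 0.05 or more. Cd86 has the largest values, at 4.0 to 4.48, Cd47 lies under 0 in each state, and Il10 has no point where CD45- cells were listed at 0.

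Between CD45+ groups a smaller share of all genes passed. Tumor against anemia CD45+ cells gave 0 members higher and 1 lower (Pdcd1lg2), where 10.7% of all genes passed, 5.82% as higher and 4.91% as lower. Tumor against neonatal CD45+ cells gave 0 higher and 2 lower (Arg1 and Il10), where 6.61% of genes passed, 2.2% as higher and 4.41% as lower. With the replicate number as a block 5 members passed there, Pdcd1lg2 as higher and Cd80, Cd86, Arg1 and Il10 as lower. Anemia against neonatal CD45+ cells gave 2 higher, both PD-1 ligands, and 2 lower (Arg1 and Il10). Of all genes 20.3% passed there, 9.08% as higher and 11.3% as lower. Among the calls between CD45+ groups, those of Pdcd1lg2 and Arg1 carry the limit given above. Both genes entered the fit through groups where they were high, so a difference was built into their choice. Tumor CD45+ cells against MDSC gave 1 higher, Cd274 (1.88 ± 0.46, adjusted p = 0.036), and 1 lower, Nos2, of 7 tested, where 6.42% of 10255 genes passed, 5.42% as higher and 0.995% as lower. The Cd274 call was lost when tumor CD45+ library 2 or any MDSC library was left out, with fold changes of 1.75 to 2.08 and adjusted p of 0.055 to 0.13. It was lost too under median-ratio scaling (1.57, adjusted p = 0.058), quantile normalization (1.68, adjusted p = 0.10) and no filter (adjusted p = 0.056), and held without library 3 of every group (1.39, adjusted p = 0.041). Cd86 was higher without overlap but gave 1.27 ± 0.42 (adjusted p = 0.10), and Cd80 gave -0.39 ± 0.33 (adjusted p = 0.53). Pdcd1lg2, Arg1 and Il10 did not pass the filter in that fit. These comparisons share libraries, and their values are therefore not independent.

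Median differences of the members were -0.54 for tumor against anemia, -0.43 for tumor against neonatal and -0.41 for anemia against neonatal CD45+ cells, beside -0.03, -0.02 and -0.03 over all genes. Against MDSC the median was -0.39, beside 0.16. Without library 3 of every group, 4, 6 and 6 members passed between the CD45+ groups in the same order. Calls over all genes rose as well, to 3508, 2022 and 4000 of 10618 tested, from 1201, 740 and 2277 of 11195. The members added were Cd274, Cd47, Cd86 and Arg2 for tumor against anemia, and Cd47, Cd80, Cd86 and Arg2 for tumor against neonatal. For anemia against neonatal cells they were Cd80, Cd86 and Arg2. In that fit, tumor against neonatal CD45+ cells had log2 fold changes of 1.12 for Arg2 (adjusted p = 0.011), -1.82 for Cd86 (adjusted p = 0.00048), -1.40 for Cd80 (adjusted p = 0.00088) and 0.49 for Cd47 (adjusted p = 0.047). Arg2 in anemia against neonatal CD45+ cells was at -0.74 (adjusted p = 0.04). Of the interaction terms for tumor minus anemia, 0 of 9 passed and 3 had an unadjusted p under 0.05, where 2.2% of all genes passed, 1.8% with a positive and 0.393% with a negative term. For tumor minus neonatal, Il10 passed (-1.92 ± 0.42, adjusted p = 0.032), where 1.08% of genes passed, 0.509% positive and 0.572% negative. Tumor CD45- cells were listed at 0 for Il10, and the term was lost with a pseudocount of 0.1 (-1.42, adjusted p = 0.68). For anemia minus neonatal, Pdcd1lg2 passed with a positive term, where 6.93% of genes passed, 4.13% positive and 2.8% negative. Without library 3 of every group the interaction terms of 1822, 730 and 1791 of 10618 genes passed, in the same order, and members were added. They were Cd47 and Arg2 (1.86, adjusted p = 0.0056) for tumor minus anemia. For tumor minus neonatal they were Cd80 (-1.16, adjusted p = 0.036) and Arg1 (-2.17, adjusted p = 0.045). For anemia minus neonatal they were Cd274 (1.25, adjusted p = 0.041), Cd47 (-1.02, adjusted p = 0.01), Arg1 (-2.12, adjusted p = 0.027) and Il10 (-1.28, adjusted p = 0.0095). With 1 library left out, Arg1 passed without neonatal CD45- library 3 (-1.76, adjusted p = 0.039) and Il10 without anemia CD45+ library 3 (-1.47, adjusted p = 0.0051).

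**Figure D4:**
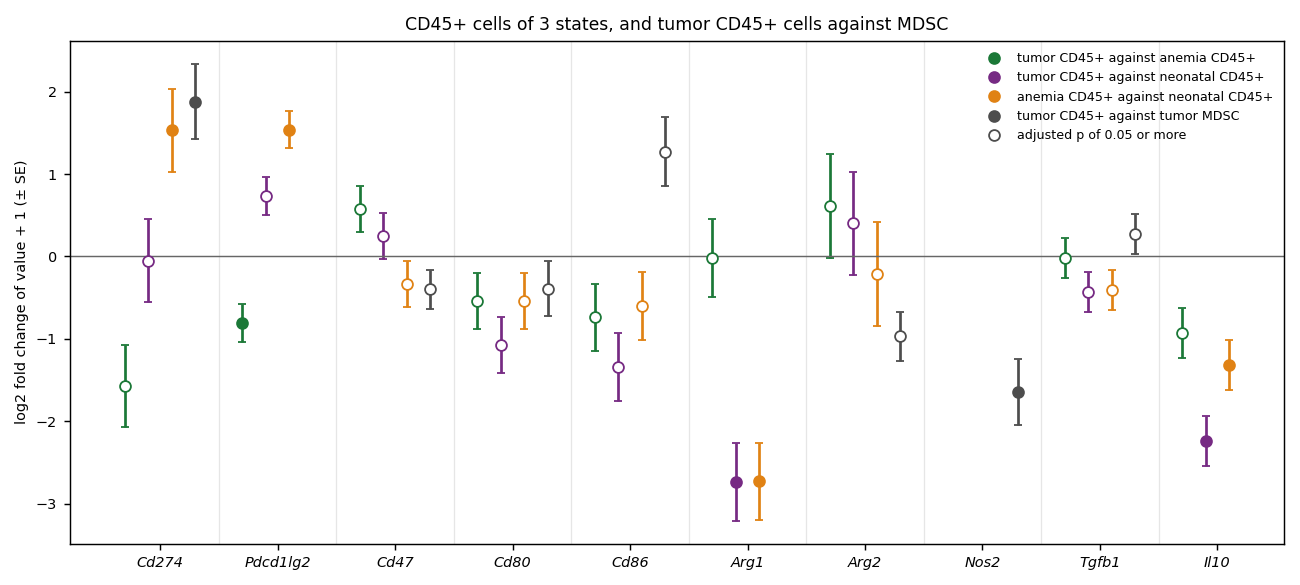
Log2 fold change of value + 1 (± SE) for each tested member between CD45+ groups and between tumor CD45+ cells and MDSC, with open symbols for an adjusted p of 0.05 or more. Arg1 and Il10 lie at -2.74 to -1.32 against neonatal CD45+ cells, and both PD-1 ligands lie above 0 in anemia against neonatal CD45+ cells.

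The receptors and partners of the members were read from a list of 14 genes. Of 12 tested, 9 passed as higher and 0 as lower in tumor CD45+ against CD45- cells, 10 and 0 in anemia and 9 and 0 in neonates. Over all tested genes 50.2%, 47.4% and 49.6% passed as higher in these comparisons and 10.9%, 11.3% and 10.3% as lower. Scaling moves these shares as given above. Some list genes were low in CD45- cells, such as Ctla4 and Tgfbr2, with means of 0.0256 and 0.459 in tumor CD45- cells. Such genes can enter the fit through groups where they are high. A difference can thus be built into these counts and those of the lists below. Sirpa, the receptor of CD47 on phagocytes, averaged 72.2 ± 24.8 in tumor CD45+ cells and 3.13 ± 2.15 in tumor CD45- cells (SD, n = 3), a fold change of 4.21 ± 0.42 (adjusted p = 2.4e-07). Tgfbr2, the ligand-binding TGF-beta receptor, gave 3.23 ± 0.31 (adjusted p = 1.7e-07). Ctla4, the inhibitory receptor of CD80 and CD86, gave 2.64 ± 0.33 (adjusted p = 2.6e-06). Thbs1, thrombospondin 1, which binds CD47 and activates latent TGF-beta, averaged 9.79 ± 2.25 in tumor, 10.7 ± 6.62 in anemia and 140.5 ± 38.8 in neonatal CD45+ cells. The fold changes against neonatal CD45+ cells were -3.70 ± 0.42 for tumor (adjusted p = 2e-05) and -3.71 ± 0.42 for anemia CD45+ cells (adjusted p = 8.7e-06). Cd28, the T cell receptor of CD80 and CD86, was lower in tumor than in anemia CD45+ cells (-1.44 ± 0.36, adjusted p = 0.015). Both it (3.27 ± 0.36, adjusted p = 6.6e-06) and Ctla4 (3.14 ± 0.33, adjusted p = 3.1e-06) were higher in anemia than in neonatal CD45+ cells. Both ran with the T cell sum, which was 23.4 to 126 in tumor, 173 to 307 in anemia and 16.6 to 46.2 in neonatal CD45+ cells, and their source was not tested.

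Of 19 further checkpoint ligands and receptors 17 were in the table and 16 were tested. In tumor CD45+ against CD45- cells 13 passed as higher and 1 as lower, in anemia 12 and 1, and in neonates 11 and 1, beside 50.2%, 47.4% and 49.6% of all genes as higher. Ceacam1, an inhibitory adhesion receptor, averaged 37.9 ± 4.03 in tumor CD45+ cells and 0.109 ± 0.0536 in tumor CD45- cells (5.13 ± 0.29, adjusted p = 3e-10). It exceeded anemia CD45+ cells (1.51 ± 0.29, adjusted p = 0.0024) and neonatal CD45+ cells (1.10 ± 0.29, adjusted p = 0.026) and was below MDSC (-1.05 ± 0.22, adjusted p = 0.017). Icosl, the ICOS ligand, gave 3.58 ± 0.27 in tumor-bearing mice (adjusted p = 8.9e-09), and was higher in anemia than in neonatal CD45+ cells (2.51 ± 0.27, adjusted p = 5.2e-06). Btla, an inhibitory receptor of lymphocytes, was higher in tumor CD45+ cells than in MDSC (3.09 ± 0.43, adjusted p = 0.0029). Fasl, the death ligand of T and NK cells, was lower in tumor than in anemia CD45+ cells (-1.44 ± 0.25, adjusted p = 0.0011). It averaged 0.308 ± 0.180 in tumor and 2.68 ± 1.28 in anemia CD45+ cells. No tumor CD45+ library reached a value of 1, so Fasl entered the fit through other groups. A difference may thus have been built into its choice. Against MDSC 3 of 12 tested genes of this list passed as higher and 1 as lower, beside 5.42% and 0.995% of all genes.

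For arginine, polyamine and tryptophan metabolism 8 of 10 listed genes were tested. Ido1 and Ido2, the only tryptophan genes of the list, had no deposited values, so the counts cover arginine and polyamine genes alone. In tumor-bearing mice and in neonates 6 passed as higher and 2 as lower in CD45+ cells, and in anemia 3 and 1. Of all genes 50.2%, 49.6% and 47.4% passed as higher in tumor-bearing mice, neonates and anemia, and 10.9%, 10.3% and 11.3% as lower. Ass1 and Asl, which rebuild arginine from citrulline, rose in tumor CD45+ cells by 2.52 ± 0.31 (adjusted p = 3e-06) and 1.85 ± 0.26 (adjusted p = 1.3e-05). Odc1, which turns ornithine, the product of arginase, into putrescine, averaged 54.6 ± 18.4 in tumor CD45+ cells and 260.9 ± 28.9 in tumor CD45- cells. It fell in CD45+ cells in tumor-bearing mice (-2.28 ± 0.27, adjusted p = 1.9e-06), anemia (-2.06 ± 0.27, adjusted p = 6.4e-06) and neonates (-1.82 ± 0.27, adjusted p = 2.5e-05), and was higher in tumor CD45+ cells than in MDSC (1.41 ± 0.26, adjusted p = 0.010).

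All 8 other suppressive mediators and adenosine and prostaglandin enzymes passed as higher in CD45+ cells of tumor-bearing mice and of neonates, and 7 of 8 in anemia, beside 50.2%, 49.6% and 47.4% of all genes. Ptgs1, cyclooxygenase 1, averaged 50.7 ± 17.2 in tumor, 3.87 ± 0.556 in anemia and 90.7 ± 11.6 in neonatal CD45+ cells. Tumor exceeded anemia CD45+ cells by 3.36 ± 0.27 (adjusted p = 9.5e-07), and anemia CD45+ cells had less than neonatal ones (-4.23 ± 0.27, adjusted p = 8.3e-09). Ebi3, a subunit of interleukins 27 and 35, averaged 10.6 ± 2.59 in tumor and 23.9 ± 6.26 in neonatal CD45+ cells (-1.09 ± 0.28, adjusted p = 0.025). Nt5e, the adenosine-forming enzyme CD73, was lower in tumor than in anemia CD45+ cells (-0.98 ± 0.25, adjusted p = 0.016). Of 13 known regulators of the members, 12, 12 and 10 passed as higher in CD45+ cells of tumor-bearing mice, anemia and neonates and 0 as lower, beside 50.2%, 47.4% and 49.6% of all genes as higher. Irf1, which drives Cd274 under interferon, gave 4.63 ± 0.33, 4.40 ± 0.33 and 3.94 ± 0.33, with adjusted p of 5e-09, 1.1e-08 and 5e-08.

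**Figure D5:**
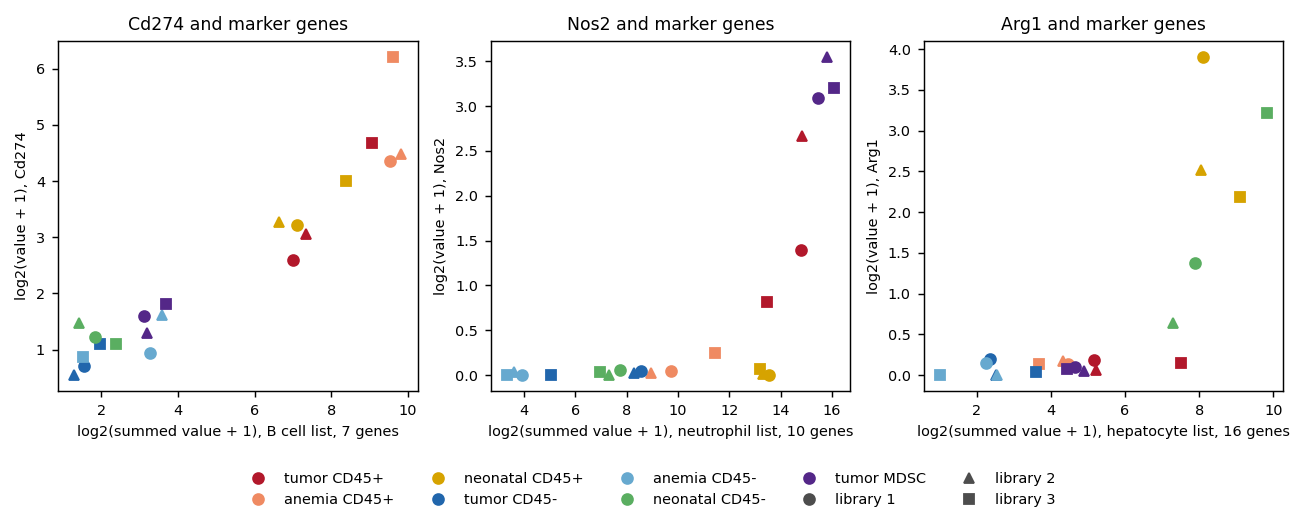
Cd274, Nos2 and Arg1 as log2(value + 1) in each of 21 libraries, plotted against log2(summed value + 1) of 7 B cell, 10 neutrophil and 16 hepatocyte genes. Cd274 is high in the CD45+ libraries, which have the high B cell sums, neonatal CD45+ cells have neutrophil sums of 9422 to 11851 with Nos2 near 0, and Arg1 stands above the rest in the 6 neonatal libraries, among which the lowest hepatocyte sum, 156, is under the 180 of tumor CD45+ library 3.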

How the data were processed

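RNA of 21 libraries in 7 groups of 3 was measured by sequencing. Per the labels' protocols, TruSeq libraries were made, from retinas in that text but from spleen by the tissue label. The submitters' processing notes name Bowtie 0.12.2 and mouse build mm8. The values are log2 expression values per gene as deposited by the authors, in a single table. The scale behind the log and the way genes were counted are not given in the sources used here, so no counting error can be stated. Blank cells (23668, 7.9%) were taken as 0, and "listed at 0" means a blank. Where a symbol stood more than once (8 symbols), its highest mean was kept, and 22 symbols had become dates and were not used.

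Values were taken out of the log, 1 was added and log2 taken, with no further scaling. Genes that reached a value of 1 in 3 or more libraries were tested two-sided in limma 3.58.1 (R 4.3.3, statmod 1.5.0; trend and robust options), with Benjamini-Hochberg adjustment over all tested genes at 0.05. A fit of the 18 Ter119+CD71+ libraries (11195 genes) served all comparisons but that with MDSC, which used the 9 libraries from tumor-bearing mice (10255 genes). The script was tested on simulated data. The groups follow the sample labels. The members, gene lists and tests were chosen with earlier results of these data known, and the hepatocyte list and the fit without library 3 of every group after the values were seen. All 10 members are named, with the 3 list genes of smallest adjusted p in each comparison, of which the text names a part, and the 3 genes most correlated with each member among 6545 genes with a mean of at least 10 in a group.

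Groups share replicate numbers. Deviations from the group means correlated between same-numbered libraries at 0.107 to 0.386 in every pair of groups compared. The exceptions were 1 library pair each of tumor against anemia (0.049) and anemia against neonatal CD45+ cells (0.076). Differently numbered libraries gave higher values in part. In tumor against neonatal CD45+ cells, tumor library 1 gave 0.264 with neonatal library 2 and 0.107 with neonatal library 1. In neonatal CD45+ against CD45- cells and tumor CD45+ cells against MDSC, same-numbered libraries gave the higher values. The library that stood apart has the same number in every group, so these values cannot show whether the numbers pair the samples. The replicate block is therefore given only as an alternative. Alternatives were a pseudocount of 0.1, no filter, median-ratio scaling, quantile normalization, genes with a blank left out, levels scaled without haemoglobin genes, the replicate block and leaving out each library.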

Additional observations from a re-analysis of the deposited data

Results flagged for a closer look

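For 2 members the CD45 difference itself differed between states, by an interaction term in the limma fit of the 18 Ter119+CD71+ libraries. For Il10 the CD45+ to CD45- difference in tumor-bearing mice minus that in neonates was -1.92 ± 0.42 on the log2(value + 1) scale (adjusted p = 0.032). Tumor CD45- cells were listed at 0 for Il10, so the term rests on the other levels. These were 0.793 to 1.31 in tumor CD45+ cells, 7.80 to 9.58 in neonatal CD45+ cells and 0 to 0.586 in neonatal CD45- cells. Il10 was under 1 in every CD45- library and entered the fit through CD45+ libraries, so a CD45 difference was built into its choice. The Il10 term had an adjusted p of 0.059 to 0.10 in the 10 fits without 1 library that did not pass, of 12. It was also lost with a pseudocount of 0.1 (-1.42, adjusted p = 0.68). Quantile normalization (-1.50, adjusted p = 0.14) and median-ratio scaling (-1.58, adjusted p = 0.062) ended the call too. For Pdcd1lg2 the difference in anemia minus that in neonates was 1.48 ± 0.33 (adjusted p = 0.010). The gene entered the fit through the 3 anemia CD45+ libraries and 1 tumor CD45+ library, so a difference from anemia cells was built into its choice. The levels behind it were 2.40 to 3.10 in anemia and 0.0400 to 0.674 in neonatal CD45+ cells, with at most 0.0770 in CD45- cells, and it missed the threshold with a pseudocount of 0.1 (2.71, adjusted p = 0.066).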

How the results depend on the processing

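Of 1249 single-member results recomputed under the alternatives, 1145 stayed on their side of the threshold, with the same direction where they passed. A call was lost with a change of sign in 1. This was Tgfb1 in tumor CD45+ against tumor CD45- cells under median-ratio scaling, at -0.01 ± 0.29 (adjusted p = 0.98) against 0.94. The difference was thus lost there and not turned round. Under the settings listed with the processing 55 single-member calls were lost and 27 gained, and without library 3 of every group 1 was lost and 20 gained. Group levels moved by more than 1 SD in 23 of 70 cases under median-ratio scaling and in 6 of 70 with haemoglobin genes left out of the total. The cause was not tested for this or the changes below. Counts of members that passed, with all libraries and no scaling, were 7, 8 and 7 in CD45+ against CD45- cells of tumor-bearing mice, anemia and neonates, 1 for tumor against anemia, 2 for tumor against neonatal and 4 for anemia against neonatal CD45+ cells, 2 for tumor CD45+ cells against MDSC, and 0, 1 and 1 for the interaction terms of tumor minus anemia, tumor minus neonatal and anemia minus neonatal. With genes holding a blank left out, which removes members from the test, they were 3, 4 and 3, then 0, 0 and 1, then 1 against MDSC, with 0 for tumor minus neonatal and 0 for anemia minus neonatal. Quantile normalization gave 4 in neonates, 2 for tumor against anemia, 1 against MDSC and 0 for tumor minus neonatal, where median-ratio scaling also gave 0. A pseudocount of 0.1 gave 0 for tumor against anemia, 2 for anemia against neonatal, 1 against MDSC and 0 for both interaction terms that had a member. No filter gave 2 for tumor against anemia, 4 for tumor against neonatal and 1 against MDSC. The replicate block gave 2 for tumor against anemia, where Cd274 passed (-1.57, adjusted p = 0.023), and 5 for tumor against neonatal CD45+ cells. It changed no other member's call except that of Arg1 in neonatal CD45+ against CD45- cells.

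Counts of all genes that passed moved too. For tumor against anemia CD45+ cells, 1201 became 723 with a pseudocount of 0.1 and 687 without blanks. For tumor against neonatal CD45+ cells, 740 became 378 without blanks and 1238 with no filter, and against MDSC 658 became 382 under quantile normalization. Interaction counts of 246, 121 and 776 became 61 for tumor minus anemia and 349 for anemia minus neonatal with a pseudocount of 0.1, 113, 38 and 384 without blanks, and 233 for tumor minus neonatal with no filter.

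Leaving out 1 library at a time gave 7 to 7, 7 to 8 and 6 to 7 members in CD45+ against CD45- cells, 0 to 3, 2 to 4 and 3 to 5 between CD45+ groups, 0 to 2 against MDSC, and 0 to 1, 0 to 1 and 1 to 2 for the interaction terms. The genes that passed were 5903 to 6942, 5535 to 7130, 5899 to 6281, 546 to 2227, 429 to 1136, 1508 to 2237, 246 to 416, 84 to 1184, 43 to 395 and 429 to 800 in the same order. Without library 3 of every group, chosen after the libraries were seen to differ, the members were 6, 7, 8, 4, 6, 6, 1, 2, 3 and 4. The genes were 7566, 7504, 7101, 3508, 2022, 4000, 258, 1822, 730 and 1791, of 10618 tested, or of 9698 against MDSC. Where leaving a library out left a group with 2, the spread was pooled over the groups. The 3 libraries per group and the unknown read depth limit all values, above all those of Pdcd1lg2, Nos2, Arg1 and Il10, which lay under 1 in most libraries.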
